A study of Mus musculus with 8 samples.

Results

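The set described here consists of 41 abundant long noncoding RNAs (lncRNAs) of the mouse cerebral cortex, among them Gm2415. The members were chosen from the 55416 genes of the count table as autosomal genes of the lncRNA biotype with a mean raw count of at least 500 over the 8 cortex libraries, leaving out 8 imprinted transcripts by name (Meg3, Rian, Mirg, Peg13, H19, Airn, Kcnq1ot1 and Snhg14) and microRNA host genes whose names start with Mir and end in hg. Of 10036 lncRNA genes in the table, 6292 had at least 1 count and 53 reached the minimum. Of these 53, 9 were left out by name and 3 lay on chromosome X. The measured value that chose the members was therefore the level averaged over both genotypes, and not the difference between them. The set itself was nonetheless chosen with earlier results of these data known.

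RNA was taken from the cerebral cortex of mice heterozygous for the L192P variant of Ago2 (genotype AGO2_L192P/+, 4 libraries, called L192P here) and of wild-type mice (WT, 4 libraries), and sequenced with a stranded mRNA library kit. Argonaute 2 (AGO2) is the protein that holds a microRNA and brings it to its target RNAs. The knock-in was made by CRISPR/Cas, the founders were crossed to C57/Bl6 mice, and the mutant libraries carry 1 copy of the variant and stand for heterozygotes that survived to sampling. The labels give neither age nor sex nor the animal behind each library, so that p-values measure the spread between these libraries.

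Long noncoding RNAs are transcripts without a long conserved reading frame. Some stay in the nucleus and scaffold nuclear bodies (Malat1, Neat1), some bind proteins in the cytoplasm (Norad), some carry microRNA sites of unusual complementarity (Oip5os1, also called Cyrano), some are hosts of small RNAs (Gas5), and some lie next to genes of developmental transcription factors (Sox2ot, Pantr1). MicroRNAs in AGO2 recognise a target mainly through their seed, bases 2 to 8 from the 5′ end. Many lncRNAs, Gm2415 among them, have no established role.

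The sequences below are shown because Gm2415, the member with the lowest fold change, starts beside a protein-coding gene, because Norad is known for binding Pumilio proteins through repeated elements, and because Oip5os1 and the hosts of miR-9 are the members with the best known link to microRNAs. The first is the 300 bases around the start of the canonical Gm2415 transcript (250 before and 50 after), GRCm39 chr9:118755338-118755637, read on the minus strand, with the 42 bases that an exon of Ctdspl shares on the plus strand in capitals.
Gm2415 start: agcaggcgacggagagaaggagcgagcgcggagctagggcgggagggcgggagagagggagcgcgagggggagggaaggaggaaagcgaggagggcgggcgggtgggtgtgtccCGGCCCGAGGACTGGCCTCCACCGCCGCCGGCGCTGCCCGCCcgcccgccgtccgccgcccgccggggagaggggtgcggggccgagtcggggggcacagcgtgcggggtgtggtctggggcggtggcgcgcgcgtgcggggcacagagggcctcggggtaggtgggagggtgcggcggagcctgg
Norad 1: cgccgtagaagtcctgTGTATATAatatga
Norad 2: taagtagtaaacatgcTGTAAATAcctttt
Norad 3: ttgtttggcttttcttTGTACATAgtgtat
Oip5os1 site 1: TCAggttttttttttaatGTCTTCCA
Oip5os1 site 2: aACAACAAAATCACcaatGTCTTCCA
miR-7a-5p: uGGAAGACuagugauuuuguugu
miR-9-5p: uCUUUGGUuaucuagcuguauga
Capitals mark the Pumilio element (TGTANATA) in the 3 Norad windows, which begin at bases 657, 1153 and 1342 of the canonical transcript, and the seed in both microRNAs, whose sequences are from RefSeq. In the Oip5os1 sites, at bases 1127 to 1152 and 3317 to 3342 of the canonical transcript, capitals mark the seed match, the A that follows it, and the run of bases upstream that can pair with the 3′ part of miR-7a-5p. That run was 3 bases long in site 1 and 13 bases long in site 2, where it covered bases 11 to 23 of the microRNA with 4 transcript bases between the paired parts.

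The libraries held 20396357 to 43575900 counts, and every member had at least 331 normalized counts (counts divided by the size factor of the library, DESeq2) in each library. Xist was at 0.934 and 1.82 normalized counts in replicate 1 of L192P and of WT and between 5185 and 7257 in the other 6 libraries. The summed level of 6 striatal markers was 20921 to 26211 in L192P and 26728 to 32198 in WT, without overlap. The summed level of 6 excitatory neuron markers was 80721 to 86531 in L192P and 80600.3 to 101549 in WT. Of 5 hypothalamic markers, 3 were tested and 2 of these, Oxt and Avp, were called higher, with Oxt at 145, 19.3, 143 and 155 normalized counts in L192P and at 2.73 to 7.60 in WT. The summed level of 4 thalamic markers was 2523 to 4852 in L192P and 2596 to 3058 in WT. Of 6 interneuron markers tested, 1 was called, Gad2, which was higher (log2 fold change 0.34, DESeq2 adjusted p = 0.0235). In the DESeq2 fit with the replicate number as a block, Gad2 was called higher (adjusted p = 0.0441) and Pvalb lower (−0.22, adjusted p = 0.00907). That fit also called 3 of 6 excitatory neuron markers and 4 of 6 striatal markers, all lower. It called 1 of 6 microglial and 1 of 4 endothelial markers, both higher. The part of these differences in the results below was not tested. In bulk tissue the make-up of a sample and the RNA level per cell cannot be told apart.

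In L192P cortex 2 abundant lncRNAs, Gm2415 and Norad, were called lower and none was called higher, where called means a DESeq2 adjusted p under 0.05. The call of Gm2415 held under all 18 alternatives and that of Norad under 9 of 18. Gm2415 was lower by 34.0% and Norad by 12.1% in the fit. The 2 lower calls among 41 members compare with 253 calls among 18627 genes tested (1.36%), of which 106 were lower (0.569%). With the replicate number as a block, 8 members were called, 6 lower (Gm2415, Norad, Malat1, Gm3764, Oip5os1 and Pantr1) and 2 higher (Gas5 and AI504432), where 533 of 12536 genes tested were called (4.25%), 2.43% lower and 1.82% higher. The other 33 members were called in neither fit.

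Most members had values on the lower side. The log2 fold change (L192P over WT) was below 0 for 28 of the 41 members (68.3%) and above 0 for 13, where 49.4% of all genes tested were below 0. Its median over the members was −0.07, beside 0.0019 over all genes tested and −0.08 over the 1900 tested lncRNAs outside the set. The range was −0.60 to 0.27, and 21 members lay within 0.15 of 0. At an unadjusted p under 0.05 there were 16 of the 41 members, 13 lower and 3 higher, where 1758 of all genes tested passed (9.44%), 4.49% lower and 4.94% higher. The members were chosen for a high level, while the genes tested include many at low counts. No share over genes of like level was computed, here or for the other comparisons with all genes tested. The part of level in these shares was not tested. Among all 1941 lncRNAs tested, 4 were called, all lower, the other two being the low-level Gm39043 and Gm10635 (both −1.29).

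**Figure D1:**
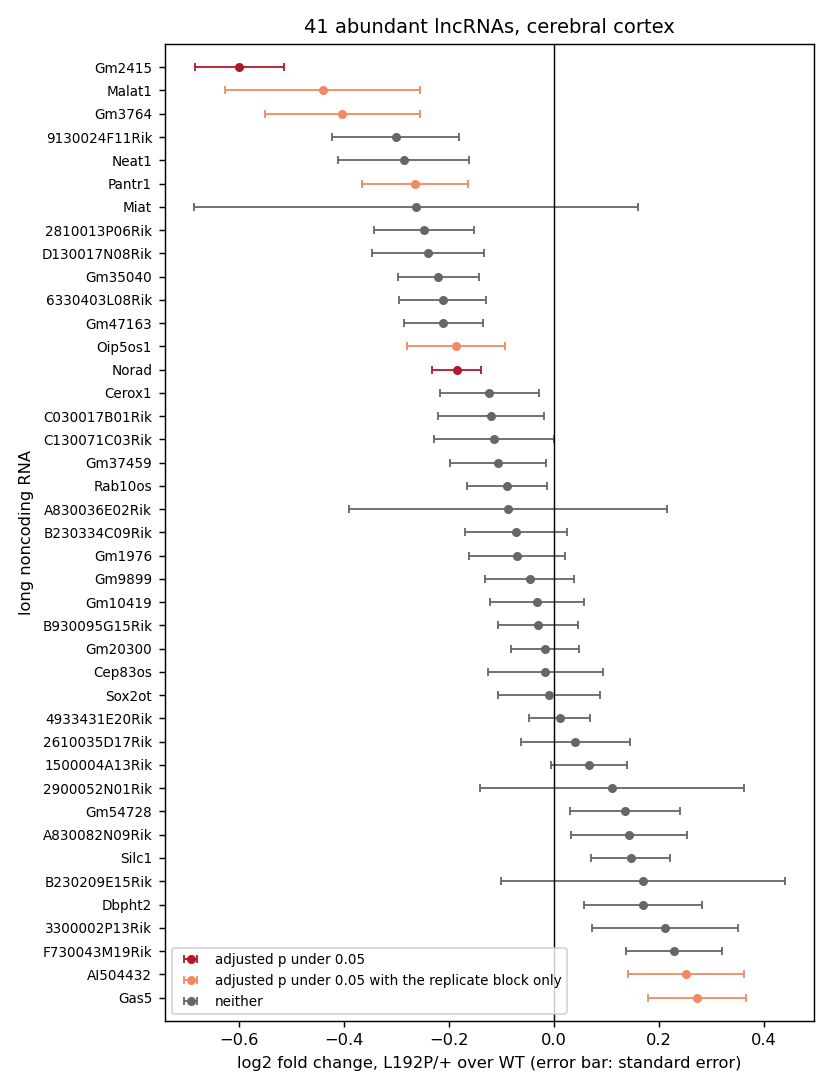
Log2 fold change of each of the 41 members (L192P over WT, horizontal axis) with its standard error, ordered by value, with colours for the call at an adjusted p under 0.05 without and with the replicate block. Gm2415 (−0.60) is set apart from the rest, Norad (−0.19) has a narrow error, and 28 of 41 points lie left of 0.

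Gm2415 (ENSMUSG00000086119, GRCm39 chr9:118718380-118755523, minus strand) had the largest difference in the set. It stood at 623, 707, 602 and 712 normalized counts in L192P replicates 1 to 4 and at 962, 1076, 966 and 993 in WT. The highest L192P library lay well below the lowest WT library, and L192P was the lower in 4 of 4 replicate pairs. The means were 661 ± 56.5 (SD, n = 4) and 999 ± 53.2 (n = 4), and the log2 fold change was −0.60 ± 0.0844 (SE, 95% interval −0.76 to −0.43, DESeq2 adjusted p = 4.56e-09). The log2 ratios within pairs were −0.63, −0.61, −0.68 and −0.48. Per kilobase of annotated exon, Gm2415 stood at 195 normalized counts in WT and 129 in L192P and ranked 17 among the 40 members with an annotated length. That length covers the exons of all annotated transcripts (5134 bases for Gm2415, whose canonical transcript has 1326).

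The genes around Gm2415 were not called. The outermost annotated start of Gm2415 lies 41 bases inside Ctdspl, counted from the Ctdspl start at position 118755482, and the canonical Gm2415 transcript starts at 118755387, outside it. Ctdspl, which encodes a small phosphatase of the C-terminal domain of RNA polymerase II and is read from the opposite strand, stood at 955, 925, 897 and 843 normalized counts in L192P and at 878, 872, 889.7 and 963 in WT, with the groups fully overlapping (905 ± 47.5 against 901 ± 42.4, log2 fold change 0.01 ± 0.0741, adjusted p = 0.994). Itga9, an integrin subunit whose exons share 40 bases with Gm2415 on the opposite strand, had a log2 fold change of −0.06 (adjusted p = 0.961). The next protein-coding genes on each side, Golga4 at 306789 bases and Vill at 126316 bases, had 0.07 (adjusted p = 0.924) and 0.29 (adjusted p = 0.734). Of the exon bases of Gm2415, 24.2% are shared with other genes. Most of these, 1162 bases, lie in the opposite-strand lncRNA Gm16295, which had 0 counts in every library, and 42 in Ctdspl. The strand setting of the authors' counting is not given in the sources used here, so reads from bases shared by both strands cannot be assigned with certainty.

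**Figure D2:**
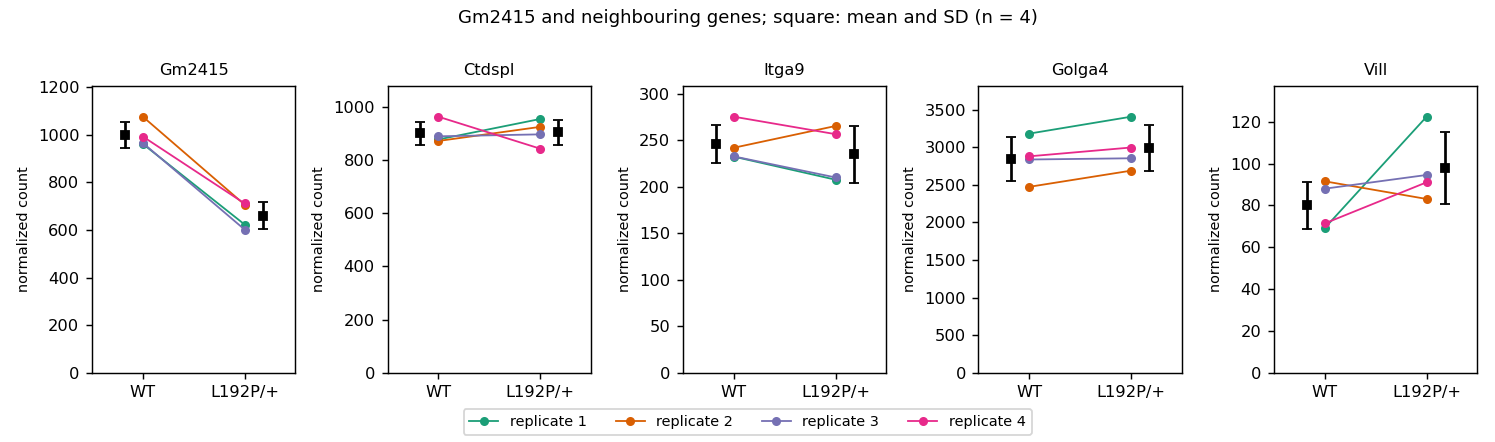
Normalized counts (vertical axes, each from 0) of Gm2415 and of 4 neighbouring genes in WT and L192P libraries, with lines joining libraries of the same replicate number and squares for mean and SD (n = 4). All 4 lines fall for Gm2415, while the groups overlap for Ctdspl, Itga9, Golga4 and Vill.

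Norad (ENSMUSG00000102869, GRCm39 chr2:156229977-156234978, minus strand), a cytoplasmic RNA that binds Pumilio proteins, was the most abundant member and held 42.9% of the summed level of the set. It stood at 41777, 40940.2, 38559 and 39791 normalized counts in L192P and at 44360.1, 46180.1, 46507 and 46094 in WT. All L192P libraries lay below all WT libraries, by a small margin in replicate 1. The log2 fold change was −0.19 ± 0.0466 (adjusted p = 0.0111, with the replicate block 6.75e-04). This call did not hold in edgeR (adjusted p = 0.138), in limma-voom (0.105) or with total-count size factors, and it was lost without L192P replicate 2 (0.0689), 3 (0.136) or 4 (0.114) and without WT replicate 2 (0.0937), 3 (0.154) or 4 (0.121). As a share of all counts of a library, which needs no size factor, Norad took 0.166 ± 0.00676% in L192P and 0.186 ± 0.00236% in WT, and the exact two-sided permutation test gave 0.0286, the smallest p that 4 against 4 allows.

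The Norad transcript carried 11 Pumilio elements in 4945 bases (2.22 per kilobase), which placed it at rank 5 of all tested genes by number and first among lncRNAs. Pum2, which encodes a Pumilio protein, was at 5808 ± 155 in L192P and 5590.4 ± 384 in WT (log2 fold change 0.06, adjusted p = 0.903). The flanking genes Epb41l1 (−0.11, adjusted p = 0.687) and Cnbd2 (0.46, adjusted p = 0.698) were not called.

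Malat1, the lncRNA of nuclear speckles, was lower in every pair, but its level also differed between replicate numbers. It stood at 5052, 3388, 3253 and 3568 normalized counts in L192P and at 5976, 5347, 4275 and 5112 in WT. L192P replicate 1 lay inside the WT range and the other 3 lay below it. The log2 fold change was −0.44 ± 0.186 with an adjusted p of 0.336, whereas the fit with the replicate block gave −0.45 and 7.33e-10. Within pairs the log2 ratios were −0.24, −0.66, −0.39 and −0.52. Malat1 was also called without L192P replicate 1 (3.56e-07) and without WT replicate 3 (0.0136). The mature 3′ end of Malat1 lacks a poly(A) tail, and how completely an mRNA kit captures it was not tested.

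Neat1, a lncRNA of paraspeckles, and Miat, a nuclear RNA that binds splicing factors, were not called in either fit. Counts are per gene, so the transcripts of Neat1 were not told apart, and their capture by an mRNA kit was not tested. Neat1 stood at 2480.4, 1725, 1734 and 1576 in L192P and at 2278, 2103, 2639 and 2156 in WT, with L192P replicate 1 alone inside the WT range (log2 fold change −0.29 ± 0.125, adjusted p = 0.366, with the block 0.306). Without L192P replicate 1 it was called lower (1.38e-04). Miat was at 3368 and 3479 in replicate 1 of L192P and WT and at 1338 to 1579.6 and 1515 to 2379 in the other libraries, so that the replicate number separated its libraries more than the genotype did (−0.26 ± 0.422, adjusted p = 0.948). In the list of 8 nuclear lncRNAs, which includes Xist and Tug1, none was called by DESeq2, edgeR or limma-voom, 2 had an unadjusted p under 0.05, and 2, Malat1 and Xist, were lower with the block.

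With replicate 1 left out of both groups, 5 members were called, all lower: Norad, Malat1, Neat1, Gm3764 and Gm2415. In that fit 500 of 14437 genes tested were called (3.46%). The log2 fold changes there were −0.22 for Norad, −0.53 for Malat1, −0.45 for Neat1, −0.51 for Gm3764 and −0.59 for Gm2415.

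Oip5os1 holds the miR-7 site shown above, known for directing the breakdown of miR-7. It was the member with the next highest level after Norad, both in counts and per kilobase of annotated exon (1063 in WT). Per kilobase of the canonical transcript, Gas5 (2136) and 4933431E20Rik (1764) stood above Oip5os1 (1495) in WT. It stood at 12986, 10533, 10494 and 11578 normalized counts in L192P and at 13979.6, 10775, 13362 and 13799.9 in WT, and the groups overlapped, with WT replicate 2 inside the L192P range. The log2 fold change was −0.19 ± 0.0936 (adjusted p = 0.51). With the replicate block it was −0.18 and called (adjusted p = 0.0178), and L192P was lower in 4 of 4 pairs. Cdr1os, the X-linked host of the circular RNA that is the best known partner of miR-7, is no member and was at −0.05 (adjusted p = 0.957). Mature microRNAs were not measured in these libraries.

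Gas5, a host of small nucleolar RNAs whose spliced transcript is broken down when it is translated, was the member with the highest log2 fold change. It stood at 1772, 1438, 1796 and 1894 in L192P and at 1552, 1329.7, 1502 and 1333 in WT, with L192P replicate 2 inside the WT range. The log2 fold change was 0.27 ± 0.0936 (adjusted p = 0.145, with the block 0.0149). It was called without L192P replicate 2 (0.00821) and without WT replicate 1 (0.0367). Of the 16 small nucleolar RNA hosts tested, none was called by DESeq2, edgeR or limma-voom and 1, Gas5, had an unadjusted p under 0.05. Their median log2 fold change was −0.01, with Snhg12 at 0.06, Zfas1 at 0.14 and Snhg6 at −0.18.

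Gm3764 and C130071C03Rik carry miR-9 hairpins. In GENCODE M39 the exons of Gm3764 hold Mir9-1 and C130071C03Rik is renamed Mir9-2hg, so that both are hosts of the kind left out by name. Gm3764 stood at 1144, 777, 733 and 853 normalized counts in L192P and at 1289, 1387, 905 and 1056 in WT. Its groups overlapped, but every pair was lower in L192P (log2 fold change −0.40 ± 0.148, adjusted p = 0.193, with the block 0.00336). Without L192P replicate 1 it was called (0.002). C130071C03Rik stood at 1364, 1072, 914 and 967 in L192P and at 1245, 1122, 1223 and 1089.9 in WT (−0.11 ± 0.114, adjusted p = 0.878, with the block 0.586).

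**Figure D3:**
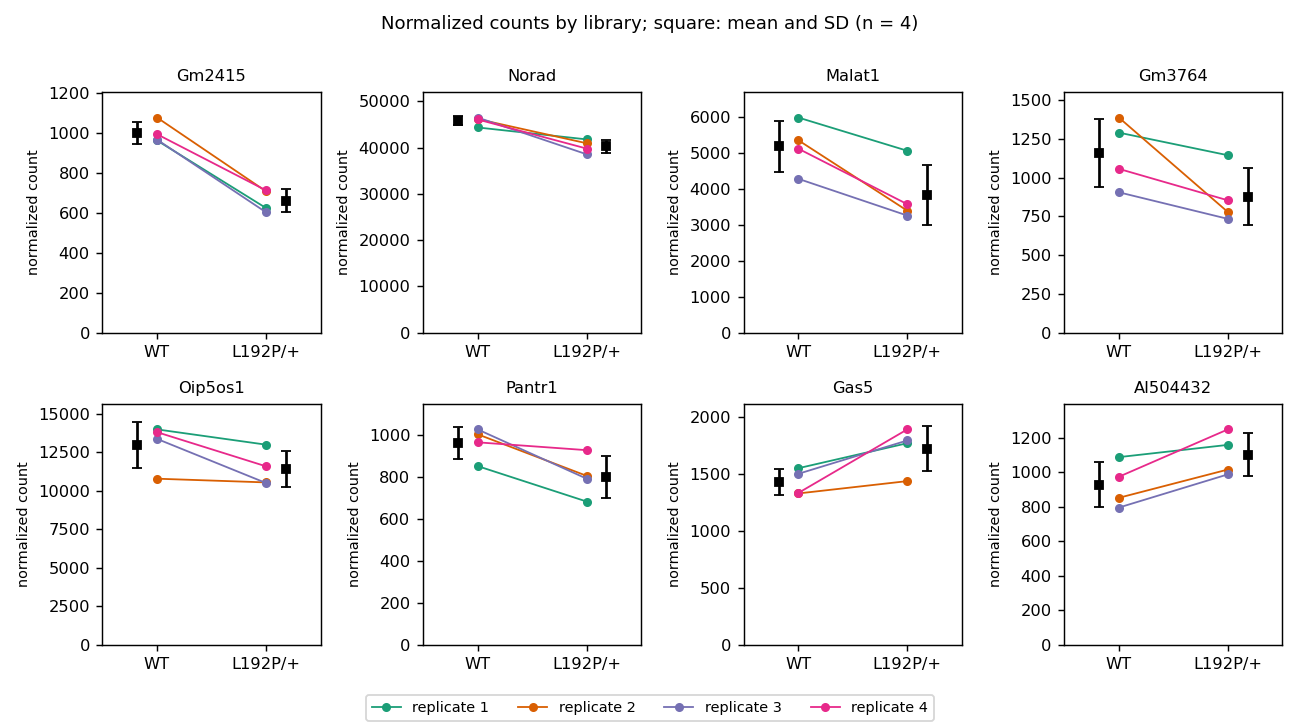
Normalized counts (vertical axes, each from 0) in WT and L192P libraries for the 8 members called in either fit, with lines joining libraries of the same replicate number and squares for mean and SD (n = 4). The lines run in one direction in every panel, and the groups are separate only for Gm2415 and Norad.

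Among the members beside developmental transcription factor genes, Pantr1 was called with the block only. Pantr1, which lies next to Pou3f3, stood at 683, 806, 792 and 928 in L192P and at 852, 1004, 1028 and 966 in WT. Replicate 1 was the lowest in both groups, and L192P replicate 4 lay inside the WT range (−0.26 ± 0.101, adjusted p = 0.231, with the block 0.0431). Without WT replicate 1 it was called (0.0485). Pou3f3 itself, whose exons share 304 bases with Pantr1 on the opposite strand, was at −0.12 (adjusted p = 0.849).

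Sox2ot, which contains the Sox2 gene on the same strand, was at 911 ± 93.8 in L192P and 918 ± 89.3 in WT (−0.01 ± 0.097, 95% interval −0.20 to 0.18). Sox2 was at 0.23 (adjusted p = 0.556, with the block 0.0498). Silc1, a regulator of the neighbouring Sox11, stood at 1274, 1098, 1114 and 1080.5 in L192P and at 1067, 1022, 997 and 1044 in WT, without overlap (0.15 ± 0.0753, adjusted p = 0.536), and Sox11 was at 0.30 (adjusted p = 0.134). 2610035D17Rik, near Sox9, was at 0.04 (adjusted p = 0.979). In a list of 16 lncRNAs beside developmental genes, which holds Pantr1, Sox2ot and C130071C03Rik but not Silc1 or 2610035D17Rik, 14 were tested. None of these was called by DESeq2, edgeR or limma-voom, and 1, Pantr1, had an unadjusted p under 0.05.

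AI504432, which lies between the potassium channel genes Kcna3 and Kcna2, stood at 1159, 1016, 988 and 1249 normalized counts in L192P and at 1088, 852, 795 and 974 in WT. The groups overlapped, and L192P was the higher in 4 of 4 pairs (0.25 ± 0.11, adjusted p = 0.37, with the block 0.0391). It was called without WT replicate 1 (0.0372). Its neighbours Kcna3 (0.22, adjusted p = 0.874) and Kcna2 (−0.04, adjusted p = 0.956) were not called. F730043M19Rik, which starts 69 bases from the Atxn7l1 gene, was at 632 ± 41.8 in L192P and 541 ± 39.5 in WT, without overlap (0.23 ± 0.0908, adjusted p = 0.276). Atxn7l1 was at 0.03 (adjusted p = 0.982).

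The normalized counts of 8 members did not overlap between the genotypes, 6 lower (Gm2415, Norad, Gm47163, Gm35040, 2810013P06Rik and 9130024F11Rik) and 2 higher (Silc1 and F730043M19Rik) in L192P. Among all genes tested, which were not matched to the members for level, 1112 (5.97%) did not overlap. 9130024F11Rik stood at 455, 455, 337 and 476 in L192P and at 485, 607, 499 and 528 in WT (−0.30 ± 0.121, adjusted p = 0.284). Of the other members not yet described, Gm47163 was at 894 ± 58.4 in L192P and 1033 ± 46.8 in WT (−0.21, adjusted p = 0.182) and Gm35040 at 809 ± 41.2 and 942 ± 54.8 (−0.22, adjusted p = 0.151). 2810013P06Rik, which starts 33 bases from the chromatin regulator gene Ankrd11, was at 476 ± 52.9 and 565 ± 16.1 (−0.25, adjusted p = 0.244), with Ankrd11 at 0.02 (adjusted p = 0.984). 6330403L08Rik, with 46.2% of its exon bases in the growth factor gene Pdgfa on the opposite strand, was at 735 ± 44.5 and 852 ± 61.1 (−0.21, adjusted p = 0.253), and Pdgfa at −0.01 (adjusted p = 0.998). D130017N08Rik was at 545 ± 60.2 and 644 ± 67.9 (−0.24, adjusted p = 0.386). None of these was called with the block.

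The remaining members gave small or variable differences. For the steadiest of them the interval was narrow. 4933431E20Rik was at 2087 ± 38.0 in L192P and 2074 ± 90.9 in WT (0.01, 95% interval −0.10 to 0.12), and Gm20300 at 1255 ± 29.5 and 1272 ± 51.8 (−0.02, 95% interval −0.14 to 0.11). Dbpht2, B930095G15Rik, 1500004A13Rik, Gm10419 and B230334C09Rik, all above 1400 normalized counts in WT, had log2 fold changes of 0.17, −0.03, 0.07, −0.03 and −0.07. Cerox1, a cytoplasmic RNA known for raising transcripts of mitochondrial complex I, was at 825 ± 91.6 and 899 ± 66.9 (−0.12, adjusted p = 0.789). Cep83os (−0.02), Rab10os (−0.09), Gm37459 (−0.11), Gm1976 (−0.07), Gm9899 (−0.05), 3300002P13Rik (0.21), A830082N09Rik (0.14), B230209E15Rik (0.17), 2900052N01Rik (0.11), A830036E02Rik (−0.09), C030017B01Rik (−0.12) and Gm54728 (0.14) complete the set, with no call in either fit.

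The members differed in how much their level varied within a genotype. The median coefficient of variation was 11.0% in L192P and 8.08% in WT, and 7 members passed 20% in either group (Malat1, Miat, Neat1, Gm3764, B230209E15Rik, 2900052N01Rik and A830036E02Rik). Replicate 1, the number with Xist near 0, was the highest of its group in both genotypes for 13 members, among them Miat, Malat1, Oip5os1, Dbpht2 and Silc1, and the lowest in both for 4 (Pantr1, 6330403L08Rik, 2900052N01Rik and 2810013P06Rik). L192P was the lower in 4 of 4 pairs for 15 members and the higher in 4 of 4 for 5. The matching shares over all genes tested were not computed. These counts and those for replicate 1 therefore describe the members and do not set them apart from other genes. Gm2415 was among neither the members that varied most nor those led by replicate 1, with coefficients of variation of 8.55% and 5.33%.

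**Figure D4:**
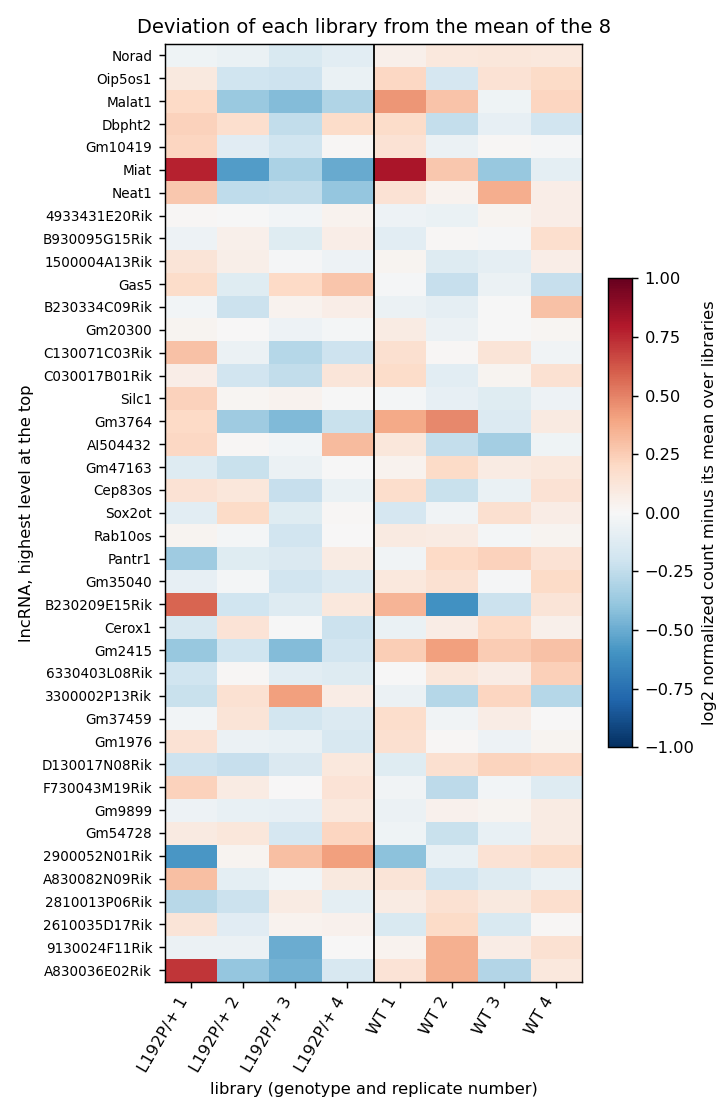
Log2 normalized count of each member in each library minus its mean over the 8 libraries (colour, limits −1 to 1), with members ordered by level from the top. Miat and Malat1 are high in replicate 1 of both genotypes, while Gm2415 and Norad are low in all 4 L192P libraries and high in all 4 WT libraries.

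Summed over the set, the members took 0.434%, 0.385%, 0.370% and 0.389% of the counts in L192P replicates 1 to 4 and 0.447%, 0.416%, 0.424% and 0.426% in WT. L192P was the lower in 4 of 4 pairs, while L192P replicate 1 lay inside the range of the WT libraries. The difference was −0.0337 percentage points (exact two-sided permutation test, p = 0.114). Within pairs the same exact test gave 0.125, the smallest p that 4 pairs allow. Without Norad the shares were 0.228 ± 0.022% and 0.242 ± 0.0149% (p = 0.286, same exact test), with L192P again the lower in 4 of 4 pairs (exact p within pairs 0.125).

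The nearest protein-coding gene on each side of a member, at any distance, and those overlapping a member were measured in the same fit. Of 86 such genes tested, DESeq2 called 0, edgeR and limma-voom called 0, and 10 (11.6%) had an unadjusted p under 0.05, beside 9.44% of all genes. Their median log2 fold change was −0.01. With the block 5 of the 73 tested in that fit were called (6.85%, beside 4.25% of all genes), all higher: Plxnc1, Cadm1, Sox2, Ndn and C2cd4c. Ndn lies 730247 bases from its member, Cadm1 602806, Plxnc1 101150 and C2cd4c 23663, while Sox2 lies within Sox2ot. Of the 18 protein-coding genes that share exon bases on the opposite strand, 0 were called and 2 had an unadjusted p under 0.05. Among 31 tested genes that handle lncRNAs (paraspeckle proteins, nuclear exosome, nonsense-mediated decay, m6A writers, Pumilio proteins and export), DESeq2, edgeR and limma-voom called 0 and 4 had an unadjusted p under 0.05. With the block the export receptor gene Nxf1 was lower (−0.24, adjusted p = 0.0474).

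In sequence and position the members were a mixed set. Of 41, 40 are in GENCODE M39, 32 share exon bases with a gene on the opposite strand, 1 shares them on the same strand only, and 7 share none. The median share was 11.1% of exon bases. Neither of the called members is among the 7 without shared bases, whose median log2 fold change was −0.02. The start window of Gm2415 printed above holds 40 CpG and 79% G or C. By the count of at least 15 CpG in 300 bases, 32.5% of the members, 35.1% of the other tested lncRNAs and 55.0% of tested protein-coding genes had a CpG-rich start.

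Seed matches for 9 microRNA families abundant in brain were sought in the canonical transcripts. The families were let-7, miR-9, miR-7, miR-128, miR-29, miR-26, miR-138, miR-132 and miR-92, and a match was the exact 7-base complement of the seed on the transcript strand. A search for miR-124, which the study calls neuron-enriched, was planned but not made. The microRNA reference gave no sequence under the name used, so the counts of matches below leave miR-124 out. The members had a median of 0.73 matches per kilobase, the tested lncRNAs outside the set 0.63 and tested protein-coding transcripts 0.82. At least 1 Pumilio element (TGTANATA, transcript strand) was in 35% of members, 13.7% of all tested lncRNAs and 31.1% of tested protein-coding transcripts, with median lengths of 2298, 1306 and 3495 bases. Gm2415 held a single match, for miR-132, and no Pumilio element. Norad held 5 matches, Oip5os1 7, Malat1 5 and Gas5 0. A match is a description of the letters and does not show binding.

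At the edge of the rule, the members with the lowest mean raw count were 9130024F11Rik (512), A830036E02Rik (513) and 2900052N01Rik (531), and the nearest lncRNAs below it were A230056P14Rik (499), Dlx6os1 (496) and A830082K12Rik (481). Tug1 and Snhg11 exceed the minimum but carry the protein-coding biotype in the table and are no members.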

How the data were processed

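Cortex RNA of 4 L192P and 4 WT libraries was analysed. Per the labels and the study's methods, the authors aligned reads to GRCm39 with STAR (2.7.9a in the submitters' processing notes) and made the deposited raw counts per gene with featureCounts (1.5.1). The deposited signal values are the counts divided by the DESeq2 (1.40.2) size factor of each library by the authors, and were checked against the counts (largest difference 3.92e-05). The strand setting, animal age and sex, and the sequencing facility of each library are not given in the sources used here.

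From the counts, DESeq2 (1.42.0, R 4.3.3, design by genotype, default Cook and independent filtering) gave log2 fold changes, standard errors and Benjamini-Hochberg adjusted p over all genes tested, with a threshold of 0.05. edgeR (4.0.16, quasi-likelihood) and limma-voom (3.58.1), both with edgeR's filter on low counts and TMM scaling, other size factors, filters, a replicate block and leaving out libraries were alternatives. Exact permutation tests over libraries were used for single values. The fits were tested on a single simulated data set without replicate effects, in which changed genes differed by 1 log2 unit. There each of the 4 fits (DESeq2 with and without the block, edgeR and limma-voom) made a larger share of false calls than its threshold sets. Calls near the threshold, such as that of Norad, are therefore read as less certain than their adjusted p states. The simulation did not test a change as small as that of Norad, nor the block where replicate effects are present.

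Replicate numbers were treated as pairing, since over 13422 genes deviations from the group mean correlated at 0.233 to 0.628 within each of the 4 numbers and at −0.375 to 0.144 between different numbers. Same-group libraries differed by more than sampling noise. Of the gene identifiers, 98.8% were found in GENCODE M39 (GRCm39), which gave exons, neighbours and canonical transcripts. Genes named by rule were Gm2415, called members, the 10 members of highest level, members of the role lists, the 3 largest and 3 smallest differences among members not called, the 3 genes on each side of the count minimum, partner genes of called members and handling genes that passed. Other members and partner genes were named after their values were seen. Members and lists were chosen with earlier results of these data known. MicroRNA sequences were from RefSeq. Counting error and spread between libraries limit precision, with 20396357 to 43575900 counts per library. Results for some genes are not reported here.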

Additional observations from a re-analysis of the deposited data

Results flagged for a closer look

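Among 88 groups of 4 libraries screened for a library standing apart from the other 3, 4 stood out, and chance gives about 4.4. Dbpht2 was at 2235 normalized counts in L192P replicate 3 and at 2980.4 to 3106 in the other L192P libraries. Miat was at 3368 in L192P replicate 1 and at 1338 to 1579.6 in the others. Gm9899 was at 582 in L192P replicate 4 and at 513 to 524 in the others. 9130024F11Rik was at 337 in L192P replicate 3 and at 455 to 476 in the others.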

How the results depend on the processing

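Gm2415 was called lower under all 18 alternatives (adjusted p 5.5e-10 to 0.00866) and Norad under 9 of 18. Beside 253 calls among all genes and 2 among members, edgeR gave 53 and 1, limma-voom 45 and 1, the replicate block 533 and 8, replicates 2 to 4 (chosen for their Xist level) 500 and 5, and total-count size factors 1 member. A mean raw count of at least 1000 left 1 call among 19 lncRNAs, and lncRNAs without shared exon bases gave 0 of 7. Leaving out 1 library gave 112 (without WT replicate 4) to 496 (without WT replicate 1) calls among all genes and 1 to 5 among members. The median over the 41 members stayed between −0.12 and −0.04 under the 18 alternative fits.

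The log2 fold change turned sign in replicates 2 to 4 for 4933431E20Rik (−0.0070), 2610035D17Rik (−0.040) and Ctdspl (−0.031), with total-count size factors for Gm20300 (0.0068), Cep83os (0.0075) and Sox2ot (0.016), and in limma-voom for Cep83os (0.00049). Leaving out 1 library gave ranges across 0 for Gm10419 (−0.12 to 0.027), Miat (−0.68 to 0.0059), 4933431E20Rik (−0.011 to 0.034), B930095G15Rik (−0.069 to 0.021), B230334C09Rik (−0.12 to 0.019), Gm20300 (−0.044 to 0.0070), Cep83os (−0.092 to 0.053), Sox2ot (−0.081 to 0.043), B230209E15Rik (−0.024 to 0.32), 2610035D17Rik (−0.0026 to 0.12), 2900052N01Rik (−0.017 to 0.28), A830036E02Rik (−0.44 to 0.043) and Ctdspl (−0.019 to 0.042). None of these was called, and the cause was not tested.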
